A study of Mus musculus with 53 samples.

Results

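The 9 genes described here encode the muscle nicotinic acetylcholine receptor and the proteins that gather it at the neuromuscular junction. They are the subunit genes Chrna1, Chrnb1, Chrnd, Chrng and Chrne and the clustering genes Musk, Rapsn, Dok7 and Lrp4. They were chosen by gene symbol, with earlier results of these data known, and all 9 were found among the 55573 genes of the postnatal day 2 (P2) tables and among the 57010 genes of the postnatal day 7 (P7) matrices.

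The receptor is a pentamer of subunits that opens a cation channel when acetylcholine binds. In fetal and denervated muscle it holds the gamma subunit beside alpha, beta and delta, and in innervated adult muscle the epsilon subunit takes the place of gamma. Motor nerves release agrin, which binds LRP4 on the muscle surface, LRP4 activates the receptor tyrosine kinase MuSK, DOK7 binds and activates MuSK inside the cell, and rapsyn ties the receptors into clusters. Of these genes, Lrp4 is also known for roles in other tissues, the brain among them.

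The study deleted the zinc finger repressor Insm1, or the TEAD transcription factors Tead1 and Tead2 together, from mouse cerebellum. Mutants carried Atoh1Cre with Insm1fl/fl or with Tead1fl/fl;Tead2fl/fl, and controls carried the same floxed alleles without Cre. Atoh1 drives Cre in the rhombic lip lineage, granule cells among its products, so cerebellar cell types of other lineages were not the target of the deletion. Whole-cerebellum RNA-seq was done at P2 on 8 Insm1 cerebella (4 controls and 4 mutants) and 7 Tead1/2 cerebella (3 controls and 4 mutants), and single-cell RNA-seq at P7 on 2 controls and 3 mutants of each allele, with 1 cerebellum per library. By their names, the P7 libraries numbered 1 hold whole cerebella, and those numbered 2 and 3 cerebella without lobules IX and X. Controls have numbers 1 and 2 only, and the main P7 fits held no term for the dissection. The chromatin libraries of the series were not analysed here. In whole tissue, fewer cells of a type and less RNA per cell cannot be told apart.

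The P2 libraries held 28066726 to 64518819 expected counts, and the P7 libraries 90269989 to 211707202 unique molecular identifiers (UMIs) in barcodes that passed the cell filters, with 0 cell barcodes shared between libraries. Insm1 was at 30.8 to 71.5 CPM (the counts-per-million unit, over library sizes scaled by the TMM method) in the P2 Insm1 controls and at 8.39 to 16.1 in the mutants. Tead1 at P2 did not separate the groups (33.4 to 54.2 CPM in controls and 38.1 to 50.7 in mutants), and reads from outside the deleted parts may remain, so this checks no label. At P7 Tead2 was at 29.8 and 32.03 CPM in the Tead1/2 controls and at 7.31 to 9.09 in the mutants. The library labelled Tead1/2 mutant 4 stood apart at P2. Its Myog, the muscle differentiation factor, was at 0.419 CPM, against 28.7 to 38.0 CPM in the other 3 mutants and 0.200 to 0.307 in the controls, so the members' Tead1/2 values at P2 are given with and without it, except in the correlations with other genes. Sex, read from the libraries by Xist against Ddx3y, was not balanced over the P2 groups. The Insm1 controls all read as female, and Insm1 mutants 3 and 4 as male. Tead1/2 mutant 4 was the only Tead1/2 mutant that read as female. Leaving it out thus changes the mix of sexes too, and no sex term was added to that fit. Nothing states that the pups of a group came from separate litters.

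The start-site regions of the 4 subunit genes with an entry, the fetal gamma and the adult epsilon among them, are shown so that their letters can be compared. They come from RefSeq on GRCm38.p6, from 250 bases before to 50 bases after the start, written 5′ to 3′ on the gene's strand. Capitals mark E-boxes (CANNTG, the site of basic helix-loop-helix factors such as MyoD and myogenin), the MCAT letters CATTCC bound by TEAD factors, and the N-box letters CCGGAA known from subunit genes with synaptic expression. Both strands were searched, and CAGCTG is one kind of E-box.
Chrna1, chr2:73580289-73580588, minus strand: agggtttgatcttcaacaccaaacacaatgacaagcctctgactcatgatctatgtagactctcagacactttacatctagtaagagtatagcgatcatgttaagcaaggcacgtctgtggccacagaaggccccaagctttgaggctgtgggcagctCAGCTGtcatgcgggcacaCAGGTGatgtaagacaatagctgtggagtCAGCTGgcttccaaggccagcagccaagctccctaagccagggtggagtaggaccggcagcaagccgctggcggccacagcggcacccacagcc
Chrng, chr1:87205561-87205860, plus strand: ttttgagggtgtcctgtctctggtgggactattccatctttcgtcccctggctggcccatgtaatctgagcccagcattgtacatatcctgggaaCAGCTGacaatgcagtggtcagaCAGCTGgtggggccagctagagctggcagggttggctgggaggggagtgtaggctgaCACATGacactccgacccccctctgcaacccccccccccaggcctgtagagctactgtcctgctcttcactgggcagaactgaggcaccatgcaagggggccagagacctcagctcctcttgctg
Chrnb1, chr11:69795888-69796187, minus strand: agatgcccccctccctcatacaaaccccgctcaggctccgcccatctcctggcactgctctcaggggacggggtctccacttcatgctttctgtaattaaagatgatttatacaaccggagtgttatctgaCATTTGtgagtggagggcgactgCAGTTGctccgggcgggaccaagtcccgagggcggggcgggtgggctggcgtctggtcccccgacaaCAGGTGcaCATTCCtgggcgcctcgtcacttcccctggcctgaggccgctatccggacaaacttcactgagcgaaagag
Chrne, chr11:70619145-70619444, minus strand: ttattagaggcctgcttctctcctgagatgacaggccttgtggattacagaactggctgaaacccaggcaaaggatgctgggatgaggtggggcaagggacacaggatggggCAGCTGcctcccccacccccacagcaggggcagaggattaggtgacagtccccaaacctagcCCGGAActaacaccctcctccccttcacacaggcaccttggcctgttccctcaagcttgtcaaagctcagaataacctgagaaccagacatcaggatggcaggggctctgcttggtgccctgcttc

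Entries were found for 6 of the 9 genes, and the entries of Chrnd, Rapsn and Lrp4 were missing. The Chrna1 window held 3 E-boxes, 2 of them CAGCTG, and so did the Chrng window. Chrnb1 had 3 E-boxes and 1 CATTCC. Chrne had 1 CAGCTG and 1 CCGGAA. The Musk window held 3 E-boxes, and the 2 Dok7 windows 1 and 0. Such matches are common: among 32544 promoters of this length, 72.3% held an E-box, 16.4% CAGCTG, 14.6% CATTCC and 15% CCGGAA. A match is a description of the letters and not of binding.

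At P2 Chrna1 was the 1 member called in the Insm1 mutants. The alpha subunit gene Chrna1 (ENSMUSG00000027107.3; chr2:73563281-73580338), which carries most of the acetylcholine binding site, was counted at 7.05, 11, 1 and 2 in Insm1 controls 1 to 4 and at 61, 45, 26 and 31 in mutants 1 to 4. On a depth-scaled basis that was 0.139 ± 0.120 CPM (SD, n = 4) in controls and 1.16 ± 0.285 (SD, n = 4) in mutants. Every mutant lay above every control. Chrna1 rose by 3.01 on the log2 scale (SE 0.44; edgeR quasi-likelihood test, Benjamini-Hochberg adjusted p = 0.0122). It was called in 13 of 14 settings, and without Insm1 control 1 it reached an adjusted p of 0.0539.

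The fetal gamma subunit gene Chrng (ENSMUSG00000026253.14; chr1:87205811-87211835) was counted at 1, 8, 0 and 0 in the Insm1 controls and at 20, 14, 9 and 11 in the mutants. The groups did not overlap, with control 2 the highest control. Control 2 was also the control with the most Myog, at 3.92 CPM against 0 to 0.482 in the other 3. It held 8 of the 9 Chrng counts of the controls. A fit without control 2, given below for 2 genes, is thus shaped by that choice, and nothing is read from it. Without control 1, 0 members were called. The fitted log2 difference of Chrng was 2.60 (SE 0.69; edgeR adjusted p = 0.207), and without control 2 it was 4.95 (adjusted p = 0.0112). The beta subunit gene Chrnb1 (ENSMUSG00000041189.9; chr11:69784036-69795966) was counted at 20, 32, 8 and 7 in controls and at 64, 50, 30 and 33 in mutants. Its CPM groups did not overlap either, the log2 difference was 1.48 (SE 0.38; edgeR adjusted p = 0.185), and DESeq2 called it (adjusted p = 0.0301), as edgeR did without control 2 (log2 difference 1.99, adjusted p = 0.0426).

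The delta subunit gene Chrnd (ENSMUSG00000026251.13; chr1:87190597-87200070) was at 0, 3, 1 and 0 counts in the Insm1 controls and at 13, 8, 3 and 10 in the mutants. The adult epsilon subunit gene Chrne (ENSMUSG00000014609.16; chr11:70614883-70619213) was at 1, 0, 0 and 0 counts in controls and at 3, 1, 1 and 4 in mutants. The CPM groups of Chrnd (at most 0.0806 in controls and at least 0.09997 in mutants) and of Chrne (0.0241 and 0.02902) did not overlap, though the highest control and the lowest mutant had the same count. Both, with Rapsn, stayed under the low-count filter of the test, and how many of all genes have groups that do not overlap was not counted, so nothing is read from the lack of overlap. Rapsn (ENSMUSG00000002104.11; chr2:91035472-91045729), the receptor's cytoplasmic anchor, was at 9, 4, 4 and 3 counts in controls and 12, 6, 8 and 7 in mutants, with overlapping groups. Counts this low cannot show a modest difference at this depth.

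The values of the kinase and its partners overlapped between groups. Musk (ENSMUSG00000057280.15; chr4:58285729-58377848) was at 17, 12, 11 and 8 counts in the Insm1 controls and at 8, 11, 4 and 15 in the mutants. Dok7 (ENSMUSG00000044716.12; chr5:35056571-35087839) was far better counted, at 356 to 490 in controls and 305 to 449 in mutants. Lrp4 (ENSMUSG00000027253.15; chr2:91457456-91513901) was at 1156 to 1793 in controls and 1233 to 1472 in mutants. The log2 differences were -0.23 for Musk (edgeR adjusted p = 0.878), 0.04 for Dok7 (0.922) and 0.03 for Lrp4 (0.946). So 1 of the 6 members tested was called at an adjusted p under 0.05, beside 0.48% of all 19582 genes called higher and 0.689% called in either direction. Of 21 skeletal muscle markers 19 were called higher in these mutants, and their summed level was 37.9 to 64.8 CPM in controls and 198 to 324 in mutants.

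**Figure D1:**
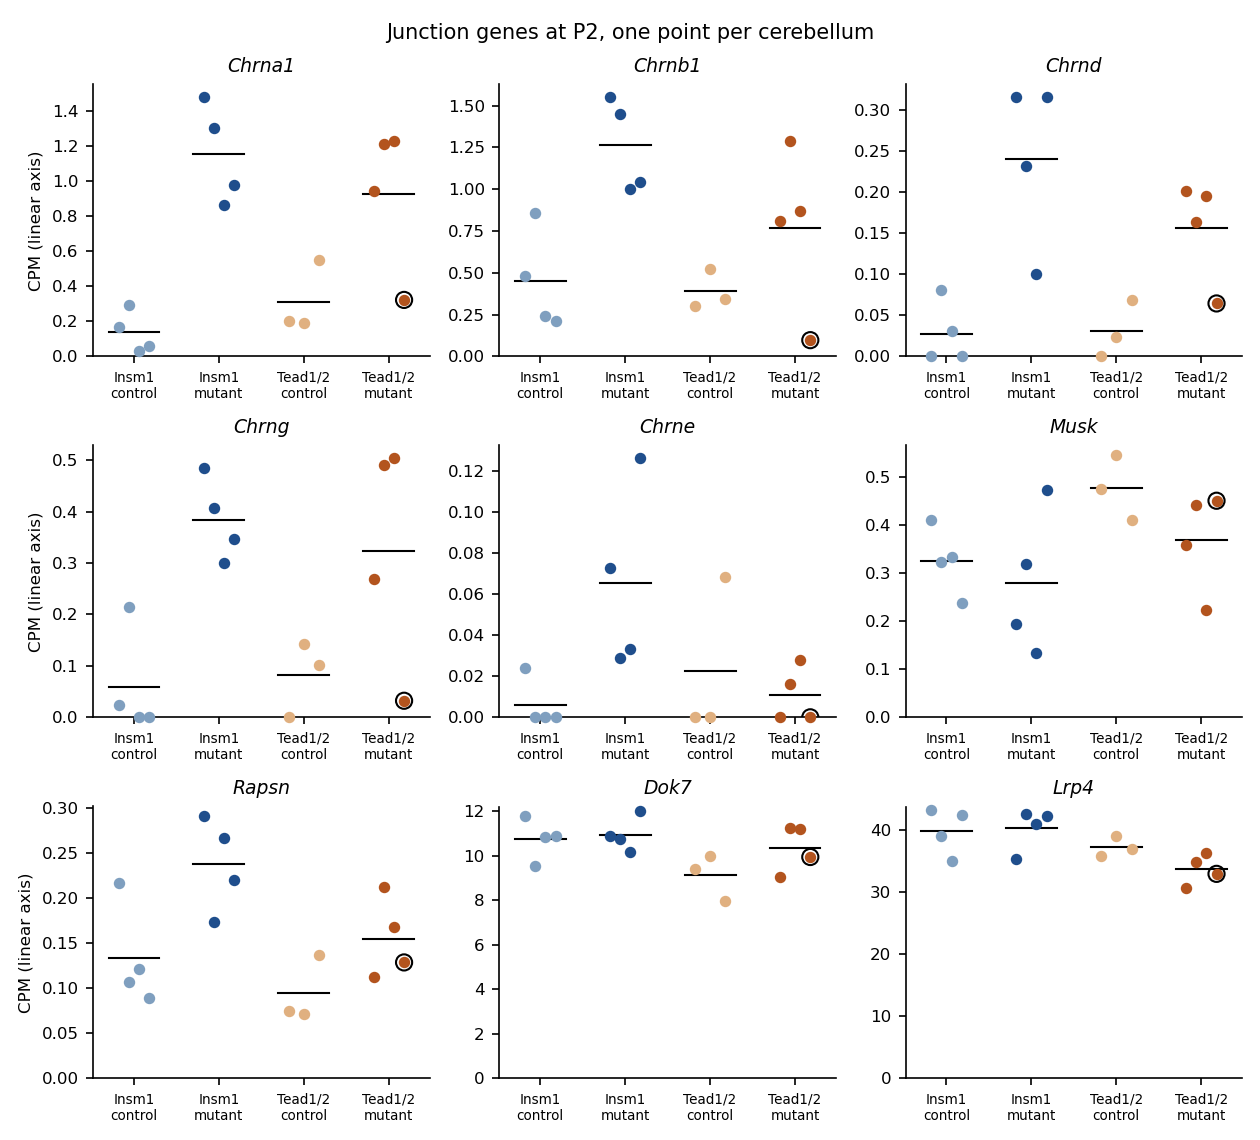
CPM of the 9 junction genes at P2, 1 point per cerebellum on linear axes, for the 4 groups, with group means as lines and the library labelled Tead1/2 mutant 4 circled. For Chrna1 the Insm1 mutants sit between 0.866 and 1.48 CPM and their controls between 0.0303 and 0.295, while Dok7 and Lrp4 overlap in both alleles.

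In the Tead1/2 series Chrna1, Chrng, Chrnb1 and Chrnd had higher values in mutants 1 to 3 than in the controls, and mutant 4 did not. Chrna1 was at 8, 8 and 16.03 counts in Tead1/2 controls 1 to 3, at 42, 74.37 and 44 in mutants 1 to 3 and at 10 in mutant 4. Chrng was at 0, 6 and 3 in controls, 12, 30 and 18 in mutants 1 to 3 and 1 in mutant 4. Chrnb1 was at 12, 22 and 10 in controls, 36, 79 and 31 in mutants 1 to 3 and 3 in mutant 4. On the CPM scale mutant 4 lay inside the control range for Chrna1, Chrng and Chrnd and below it for Chrnb1.

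With all 7 libraries no member was called, and neither was any gene (0% of 20247 genes by edgeR; 4052 genes and 3 members, Chrna1, Lrp4 and Chrng, had an unadjusted p under 0.05, and DESeq2 called 1012 genes with 0 members, giving an adjusted p for Lrp4 and Dok7 alone). The log2 differences were 1.64 for Chrna1 (SE 0.50; edgeR adjusted p = 0.132), 2.00 for Chrng (SE 0.82; 0.214) and 1.00 for Chrnb1 (SE 0.56; 0.341). Without mutant 4, 2 of 6 tested members were called higher, beside 1.98% of all genes higher and 3.19% in either direction. Chrna1 then rose by 1.89 (SE 0.37; edgeR adjusted p = 0.0292) and Chrnb1 by 1.31 (SE 0.30; 0.0491), and Chrng had a difference of 2.31 (SE 0.63; 0.0819). DESeq2 without mutant 4 called the same 2 members (adjusted p = 0.00293 for Chrna1 and 0.0432 for Chrnb1). Of the 21 muscle markers 0 were called with mutant 4 and 17 without it. Mutant 4 was set apart by its low Myog, itself a muscle marker, so calls made without it are not independent of that choice.

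Chrnd was at 0, 1 and 2 counts in the Tead1/2 controls and at 9, 10, 7 and 2 in the mutants, and Chrne at 0, 0 and 2 in controls and 0, 1, 1 and 0 in mutants. Rapsn was at 3, 3 and 4 in controls and at 5, 13, 6 and 4 in mutants. The clustering genes again overlapped between groups: Lrp4 differed by -0.18 (edgeR adjusted p = 0.162), Dok7 by 0.15 (0.414) and Musk by -0.40 (0.473) with all 7 libraries. Without mutant 4 the differences were -0.17 for Lrp4 (edgeR adjusted p = 0.211), 0.17 for Dok7 (0.404) and -0.48 for Musk (0.426).

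Whether both deletions moved these genes alike was tested as the difference of the 2 effects over all 15 P2 libraries. No member and no gene was called by edgeR (0% of 20837 genes; 1435 genes and 0 members had an unadjusted p under 0.05, and DESeq2 called 14 genes and 0 members). For Chrna1 the Tead1/2 effect minus the Insm1 effect was -1.37 on the log2 scale (SE 0.76; edgeR adjusted p = 0.789), and -1.12 without mutant 4 (0.806), where 0 members were called as well. The labels give the P2 libraries of each allele a batch number of their own, so batch and allele cannot be told apart in this difference. The genes most like Chrng in their deviation from the controls of the allele were Gdnf (Pearson r = 0.956), Myl1 (0.955), Tnni1 (0.948), Myog (0.935) and Actc1 (0.928), and those most like Chrna1 were Myl1 (0.962), Mylpf (0.960), Myh3 (0.949), Acta1 (0.947) and Des (0.929), over 15 libraries and 16371 genes. Apart from Gdnf, a neurotrophic factor, these are muscle genes. The points share the 2 labelled batches and the contrast between mutants and controls.

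At P7 all 9 genes were higher in the mutants of both alleles, by far the most for alpha, gamma and delta. The values here are UMIs summed over all passing barcodes of a library, as CPM over TMM-scaled library sizes. Chrna1 stood at 0.183 and 0.135 CPM in Insm1 controls (33 and 24 UMIs) against 11.1, 11.4 and 11.3 in the mutants (1231, 1523 and 1332 UMIs). Tead1/2 controls had it at 0.109 and 0.113 CPM (15 and 11 UMIs) and their mutants at 36.0, 35.0 and 25.4 (3310, 7692 and 3482 UMIs). Every mutant lay far above every control. How many of all genes have P7 groups that do not overlap was not counted, so nothing is read from the lack of overlap here and below.

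Chrng, the fetal subunit, stood at 0.0831 and 0.0618 CPM in Insm1 controls, and Insm1 mutants reached 7.32, 8.78 and 8.79. For Tead1/2 it was at 0.0654 and 0.124 CPM in controls and at 26.2, 25.3 and 18.2 in mutants. The control levels rest on 9 to 15 UMIs a library. Chrnd, its neighbour on chromosome 1, stood at 0.0831 and 0.0618 CPM in Insm1 controls and 5.45, 6.77 and 6.76 in the mutants. For Tead1/2, Chrnd was at 0.0436 and 0.0412 CPM in controls and at 20.5, 20.2 and 15.4 in mutants. For both genes every mutant library lay far above every control library.

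Chrnb1, which had a base level in the controls, stood at 1.65 and 1.29 CPM in Insm1 controls, against 25.7, 25.7 and 26.02 in the mutants. For Tead1/2, Chrnb1 was at 1.06 and 0.978 CPM in controls and 39.2, 39.5 and 31.7 in mutants. The adult subunit gene Chrne was scarce, with 0.0277 and 0.0225 CPM in Insm1 controls (5 and 4 UMIs) against 0.117, 0.277 and 0.347 in the mutants (13, 37 and 41 UMIs). For Tead1/2, Chrne was at 0.0654 and 0.0309 CPM in controls (9 and 3 UMIs) and at 0.501, 0.436 and 0.592 in mutants (46, 96 and 81 UMIs). Mutants lay above controls here too, from a base of a few molecules.

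Of the clustering genes, Dok7 moved most in the Insm1 mutants, from 1.15 and 1.12 CPM in controls to 16.1, 16.9 and 19.1. For Tead1/2 it was at 1.14 and 1.55 CPM in controls and 19.8, 23.8 and 18.5 in mutants. Rapsn stood at 0.299 and 0.253 CPM in Insm1 controls against 2.04, 2.86 and 2.49 in the mutants, and at 0.269 and 0.196 against 7.78, 6.25 and 5.26 for Tead1/2. The mutant ranges of Dok7 in the 2 alleles overlapped and those of Rapsn did not.

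Musk stood at 1.03 and 0.853 CPM in Insm1 controls, with 3.41, 2.50 and 2.89 in the mutants, and at 1.15 and 0.638 against 8.32, 7.94 and 7.14 for Tead1/2. Lrp4 was at 11.3 and 11.8 CPM against 18.1, 19.99 and 21.8 for Insm1, and at 11.7 and 10.6 against 26.5, 24.1 and 24.9 for Tead1/2. Controls and mutants lay closest together for Lrp4, of the 9 genes.

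All 9 members passed the filter and were called higher by edgeR in both alleles and in all 12 settings tried, beside 18.6% of the 24602 genes called higher for Insm1 and 25.9% for Tead1/2 (33.9% and 48.6% in either direction). The log2 changes for Insm1 were 6.83 for Chrng (SE 0.27; adjusted p = 7.11e-08), 6.44 for Chrnd (SE 0.23; 3.55e-08), 6.15 for Chrna1 (SE 0.21; 2.85e-08) and 4.14 for Chrnb1 (SE 0.14; 2.85e-08). They were 3.94 for Dok7, 3.28 for Chrne, 3.17 for Rapsn, 1.65 for Musk and 0.81 for Lrp4 (SE 0.09; 9.25e-05). For Tead1/2 the log2 changes were 8.74 for Chrnd (SE 0.26; edgeR adjusted p = 7.43e-09), 8.16 for Chrna1 (SE 0.23; 6.69e-09), 7.99 for Chrng (SE 0.28; 1.86e-08) and 5.16 for Chrnb1 (SE 0.15; 7.03e-09). They were 4.75 for Rapsn, 3.95 for Dok7, 3.30 for Chrne, 3.09 for Musk and 1.16 for Lrp4 (SE 0.09; 4.18e-06). Skeletal muscle markers moved with them: all 21 of a fixed list were called higher in both alleles, and their summed level was 76.0 to 94.5 CPM in Insm1 controls against 6332 to 7509 in mutants, and 69.8 to 82.6 against 14480 to 22900 for Tead1/2.

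**Figure D2:**
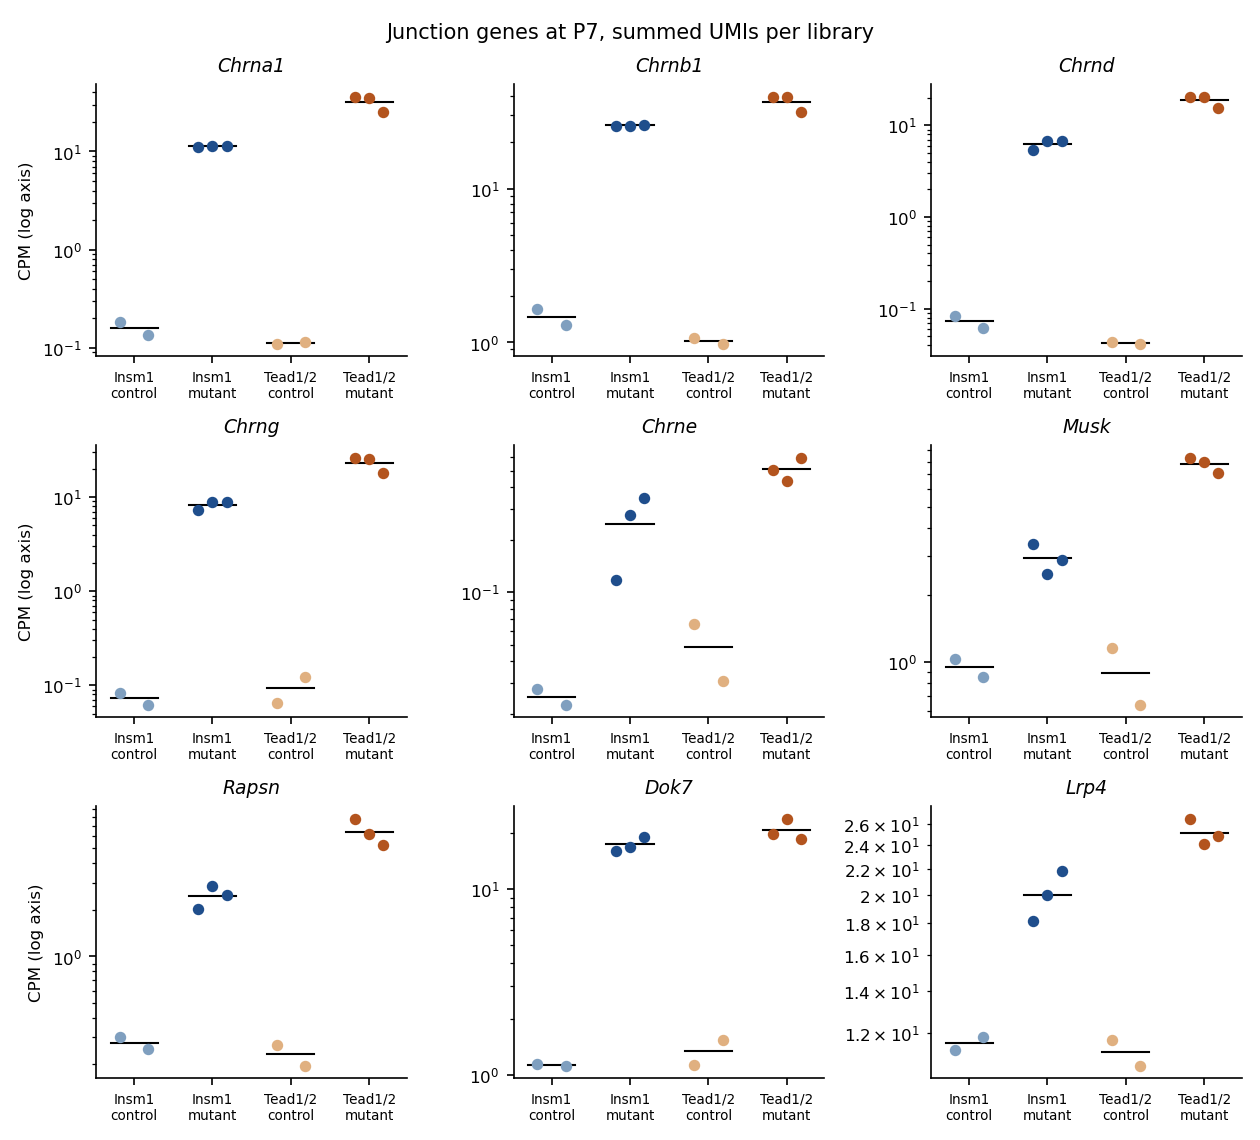
CPM of the 9 junction genes at P7 on log axes, 1 point per library, with UMIs summed over all passing barcodes, for the 4 groups. Every mutant library lies above every control library of its allele, a pattern not counted over all genes. The gap is widest for Chrna1, Chrnd and Chrng and narrowest for Lrp4.

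The 2 deletions did not move all 9 genes by the same amount. The Tead1/2 effect minus the Insm1 effect was called by edgeR for 5 of 9 members, beside 2.17% of 24602 genes called higher and 3.68% in either direction. These were Chrnd with 2.30 on the log2 scale (SE 0.47; adjusted p = 0.0306), Chrna1 with 2.01 (SE 0.36; 0.0172), Rapsn with 1.59 (SE 0.34; 0.0375), Musk with 1.45 (SE 0.31; 0.0363) and Chrnb1 with 1.02 (SE 0.18; 0.0172). The differences of Chrng at 1.15 (SE 0.51; 0.242) and Lrp4 at 0.36 (SE 0.13; 0.153) missed the threshold, and those of Dok7 (0.01) and Chrne (0.02) were near 0.

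These 5 calls rest on few libraries. No member was called without Tead1/2 control 2, 1 without Tead1/2 control 1, 1 without Insm1 control 1 and 2 without Insm1 control 2. Leaving out Insm1 mutant 2 or Insm1 mutant 3 left 3, and leaving out Tead1/2 mutant 2 left 2. With every deposited barcode in the sums 1 member was called, and 3 without barcodes marked as doublets. With a replicate block 3 were called; number 1 marks whole cerebella, and numbers 2 and 3 cerebella without lobules IX and X. Chrnd had 4 to 15 UMIs per control library, and the library sums hold the share of muscle-like cells together with the level in each.

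The share of each gene's UMIs that lay in muscle-like cells differed widely between the genes. Clusters were made without the 9 members or the other junction genes, and 4 of 34 were named skeletal muscle-like. The controls held 5, 2, 0 and 0 such cells, the Insm1 mutants 966, 1154 and 693 (13.9% to 15.8% of cells) and the Tead1/2 mutants 1705, 2845 and 1602 (21.9% to 30.5%). Of the UMIs in kept cells of the Insm1 mutants these clusters held 73.8% for Chrnd, 72.0% for Chrng, 69.3% for Chrna1, 68.2% for Rapsn, 64.0% for Chrne, 57.4% for Musk, 56.9% for Chrnb1, 47.4% for Dok7 and 22.4% for Lrp4. The same shares in the Tead1/2 mutants, in this order of genes, were 82.9%, 82.7%, 81.8%, 82.1%, 85.7%, 68.3%, 77.1%, 69.99% and 39.9%. Of the Lrp4 UMIs, astroglia held 30.2% and 16.1% in the Insm1 and the Tead1/2 mutants, and fibroblasts 13.2% and 15.5%. Cluster 33 had 9 of the 21 muscle markers, among them Myod1 and the fusion genes Mymk and Mymx. Cluster 32 had 17, and clusters 25 and 16 had 20 each, sarcomere genes included. Cluster 16 also passed 7 astroglia markers and had a median of 57514 UMIs per cell, against 6200, 8107.5 and 22180 in clusters 33, 32 and 25; the part of mixed barcodes in it was not tested. Granule lineage cells made up 57.1% to 66.5% of control cells and 23.9% to 43.9% of mutant cells.

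The genes differed in their levels across these clusters, given here in CPM over the 3 Insm1 mutants and then the 3 Tead1/2 mutants. This is a description of clusters and not a test, and the clusters were not placed in an order of time. Within a cluster, CPM is over that cluster's UMIs without further scaling. Myog was highest in clusters 33 and 32 (428 and 432 CPM for Insm1) and lower in cluster 25 (123) and cluster 16 (89.6). Dok7 was also highest in these clusters, with 79.4 ± 11.04 and 96.7 ± 12.6 CPM (SD, n = 3) in cluster 33, 65.2 ± 3.78 and 67.5 ± 6.63 in cluster 32, and 32.5 ± 1.24 and 34.1 ± 2.17 in cluster 25. Chrnb1 was highest in cluster 32, at 153 ± 2.57 and 122 ± 6.74 CPM, and was at 90.9 ± 13.7 and 73.2 ± 4.97 in cluster 33.

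Gamma and delta were low in cluster 33 and higher in the clusters with more sarcomere markers. Chrng was at 5.49 ± 0.769 and 5.74 ± 1.59 CPM (SD, n = 3) in cluster 33, at 41.0 ± 4.61 and 46.5 ± 8.24 in cluster 32 and at 48.5 ± 6.41 and 75.8 ± 8.22 in cluster 25. Chrnd was at 3.63 ± 2.75 and 4.09 ± 1.04 CPM in cluster 33, 28.2 ± 0.788 and 37.0 ± 5.04 in cluster 32 and 37.9 ± 7.41 and 62.6 ± 8.58 in cluster 25. Chrna1 was at 22.3 ± 2.53 and 38.1 ± 1.89 CPM in cluster 33, at 55.02 ± 1.295 and 85.7 ± 6.36 in cluster 32 and at 57.0 ± 6.12 and 95.6 ± 12.5 in cluster 25. So cluster 33 held alpha and beta with little gamma or delta.

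The kinase and the adult subunit had few or no UMIs in clusters 33 and 32. Musk was at 0.0964 and 1.01 ± 0.418 CPM in cluster 33, at 0 and 0.126 in cluster 32, and at 18.6 ± 2.01 and 23.4 ± 3.43 (SD, n = 3) in cluster 25. Lrp4, its co-receptor, was at 3.13 ± 0.311 and 3.19 ± 0.438 CPM in cluster 33 and at 27.3 ± 4.58 and 35.7 ± 6.16 in cluster 25. Rapsn was at 2.04 ± 0.577 and 1.61 ± 0.904 in cluster 33, 6.28 ± 0.942 and 6.64 ± 0.720 in cluster 32 and 14.0 ± 1.56 and 22.1 ± 4.58 in cluster 25. Chrne had 1 and 0 UMIs in cluster 33, was at 0 in cluster 32 in both alleles and reached 1.32 ± 0.678 and 2.15 ± 0.927 CPM in cluster 25. In cluster 16 all 9 stood below their level in cluster 25, except Lrp4 in the Tead1/2 mutants (40.2 ± 9.66).

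**Figure D3:**
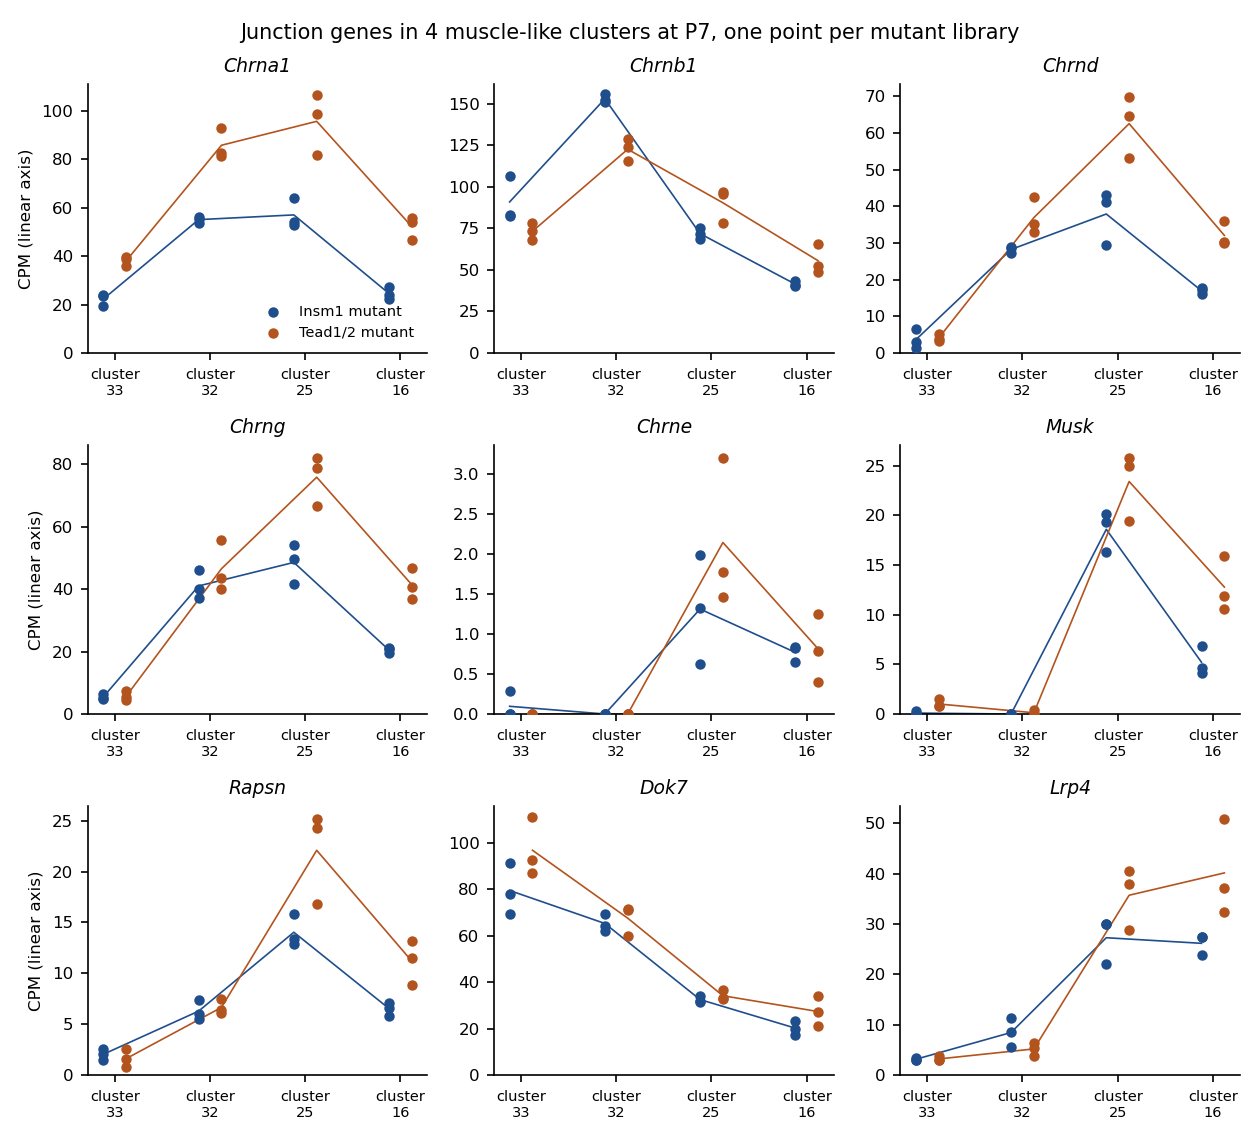
CPM on linear axes of the 9 genes in muscle-like clusters 33, 32, 25 and 16, 1 point per mutant library and a line through the means, for Insm1 and Tead1/2 mutants. Dok7 is highest in cluster 33 and Chrnb1 in cluster 32, while Musk, Rapsn and Chrne are highest in cluster 25.

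Muscle-like cells of the Tead1/2 mutants had higher levels of receptor transcript than those of the Insm1 mutants. Over all 4 clusters Chrna1 was at 39.1, 36.3 and 37.4 CPM in Insm1 mutants 1 to 3 and at 87.7, 68.5 and 79.9 in Tead1/2 mutants 1 to 3. Chrng was at 27.7, 30.01 and 29.3 CPM against 64.0, 50.4 and 57.0, and Chrnd at 20.1, 24.1 and 23.8 against 49.97, 40.2 and 49.6. The Tead1/2 libraries had the higher values for these 3 genes. By edgeR on these sums 7 of 9 members were called higher in the Tead1/2 mutants, beside 15.5% of 18296 genes called higher and 30.3% in either direction. They were Chrna1 (log2 difference 1.13, SE 0.10; adjusted p = 1.32e-04), Chrnd (1.10, SE 0.11; 2.54e-04), Chrng (1.04, SE 0.10; 1.86e-04), Musk (0.98, SE 0.16; 0.00192), Rapsn (0.97, SE 0.17; 0.00273), Lrp4 (0.54, SE 0.13; 0.0131) and Chrnb1 (0.33, SE 0.10; 0.0300). Dok7 (0.22; 0.0940) and Chrne (0.80; 0.147) were not called. Marker lists moved with these calls: 18 of 21 skeletal muscle markers were called higher (median 0.758 on the log2 scale), and 8 of 10 granule neuron, 7 of 8 granule progenitor and 6 of 9 astroglia markers lower (medians -0.790, -0.675 and -0.617). Their part in the members' differences was not tested.

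The mix of clusters differed between the alleles as well. Cluster 25 was 20.8% to 30.7% of the muscle-like cells of the Insm1 mutants and 39.1% to 44.5% of those of the Tead1/2 mutants, and cluster 33 was 42.3% to 45.2% and 27.2% to 32.1%. In fits chosen after seeing the data, cluster 16 alone gave 7 called members (8.17% of genes called higher), cluster 25 alone 5 (9.7%), cluster 32 alone 1 (2.61%) and cluster 33 alone 1 (2.98%). In either direction 14.8%, 19.9%, 5.25% and 5.92% of genes were called in these 4 fits. In cluster 25 the differences were 0.84 for Chrna1 (edgeR adjusted p = 0.00187), 0.81 for Chrnd (0.00639), 0.73 for Chrng (0.00345), 0.72 for Rapsn (0.0220) and 0.42 for Chrnb1 (0.0221). Chrna1 was the 1 member called in all 4 clusters, with 0.64 in cluster 32 and 0.77 in cluster 33. Chrnb1 had the opposite sign there, -0.32 in cluster 32 (0.0503) and -0.33 in cluster 33 (0.131), without passing the threshold. The deletion and the mouse line that carries it cannot be told apart in this comparison.

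At P7 nearly all gamma and epsilon UMIs of the mutants were gamma. Chrng made up 98.4%, 97.0% and 96.2% of the UMIs of Chrng and Chrne together in Insm1 mutants 1 to 3 (810 of 823, 1175 of 1212 and 1040 of 1081 UMIs) and 98.1%, 98.3% and 96.8% in Tead1/2 mutants 1 to 3. In the controls the share was 75.0% (exact binomial 95% interval 50.9% to 91.3%; 15 of 20 UMIs) and 73.3% (44.9% to 92.2%; 11 of 15) for Insm1, and 50% (26.02% to 74.0%; 9 of 18) and 80% (51.9% to 95.7%; 12 of 15) for Tead1/2. These intervals cover counting error only. Every mutant share lay above every control share, and with 2 control and 3 mutant libraries no test was made.

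At P2 the counts were too few to tell. The share was 87.0%, 93.3%, 90.0% and 73.3% in the 4 Insm1 mutants and 50% and 100% in the 2 controls with any count of either gene. The difference of 10.91 percentage points had an exact two-sided permutation p of 0.667, where 0.0667 is the smallest that 2 against 4 libraries allow. For Tead1/2 the share was 100%, 96.8%, 94.7% and 100% in the mutants and 100% and 60% in 2 controls, a difference of 17.88 points (exact two-sided permutation p = 0.333). Without mutant 4 it was 17.17 points (exact two-sided permutation p = 0.4, where 0.1 is the smallest possible). By muscle-like cluster at P7, gamma and epsilon UMIs were 66 and 1 in cluster 33 of the Insm1 mutants, 230 and 0 in cluster 32, 1157 and 33 in cluster 25 and 550 and 21 in cluster 16. For Tead1/2 they were 82 and 0, 677 and 0, 5837 and 154, and 1263 and 20. Of the epsilon UMIs in these 4 clusters all but 1 lay in clusters 25 and 16, where Musk was highest among the 4. The 4 clusters held 64.0% and 85.7% of all Chrne UMIs in kept cells of the Insm1 and the Tead1/2 mutants. In the Insm1 mutants 17 of the 86 Chrne UMIs of kept cells lay in 4 Purkinje cells.

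**Figure D4:**
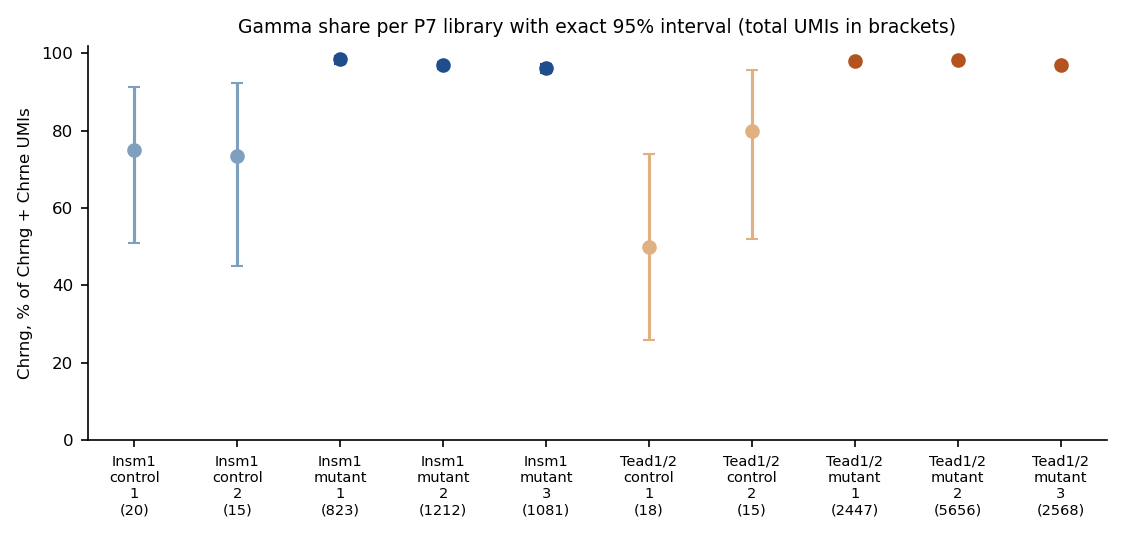
Share of Chrng among the UMIs of Chrng and Chrne in each P7 library, in percent, with the exact binomial 95% interval as bars and the number of UMIs in parentheses. The 6 mutant libraries lie between 96.2% and 98.4%, and the 4 control libraries between 50% and 80% with wide intervals.

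UMIs of all 4 fetal subunit genes were found together in some single cells. All 4 fetal subunit genes (Chrna1, Chrnb1, Chrnd and Chrng) had a UMI in 9.52% to 13.7% of the muscle-like cells of the Insm1 mutants and in 20.2% to 23.9% of those of the Tead1/2 mutants. All 4 subunit genes of the adult form, with Chrne in place of Chrng, did in 0.311% to 0.433% and 0.984% to 1.19%. Gamma without epsilon was found in 27.2% to 34.3% and 40.8% to 43.3% of the cells, and epsilon without gamma in 0.104% to 0.693% and 0.105% to 0.293%. At 2000 UMIs per cell the full fetal set was left in 0, 1 and 1 muscle-like cells of Insm1 mutants 1 to 3 and in 4, 3 and 1 of Tead1/2 mutants 1 to 3. Within cluster 25 the full fetal set, before thinning, was found in 20.8% to 36.1% and 36.5% to 44.4% of cells, within cluster 32 in 4.23% to 5.34% and 6.67% to 8.46%, and within cluster 33 in at most 0.319%. It was found most often in cluster 16, the deepest of the 4 and the one with astroglia markers, in 33.3% to 42.4% and 39.9% to 51.6% of cells, except in Insm1 mutant 3, where cluster 25 had 36.1% and cluster 16 33.3%. Oligodendrocyte lineage cells held the full set in 0% to 1.97% and 0.664% to 4.23% of cells; the part of mixed barcodes in these shares was not tested. Any subunit gene was seen in 74.8% to 78.6% and 78.9% to 82.3% of muscle-like cells, and at 2000 UMIs per cell in 29.7% to 35.1% and 37.2% to 38.9%. Over all kept cells of the control libraries it was 1.69% to 2.73% before thinning. By class, the controls had 1.98% to 3.23% in interneurons, 1.05% to 1.86% in granule lineage cells and 2.87% to 5.63% in oligodendrocyte lineage cells. In these 3 classes of the mutant libraries, also before thinning, it was 3.94% to 8.16%, 2.25% to 5.93% and 7.74% to 25.2%. Chrna1 alone was seen in 22.2% and 26.7% of Purkinje cells of the Insm1 and the Tead1/2 mutants. It was seen in 16.9% and 16.6% of their fibroblasts, 11.5% and 18.8% of endothelial cells and 5.53% and 5.31% of astroglia. Unnamed cluster 24 had it in 20.6% and 50.4% of cells and microglia in 0.974% and 1.45%. In the controls these classes had it in at most 1.11% of cells. These Chrna1 shares are before thinning. At 2000 UMIs per cell they were 0.676% and 3.85% in Purkinje cells, 1.66% and 1.76% in fibroblasts and 0% and 2.12% in endothelial cells. Thinned astroglia had 0.326% and 0.930%, unnamed cluster 24 2.59% and 5.91% and microglia 0% and 0.808%. The source of these UMIs was not tested.

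Outside muscle, Lrp4, Chrnb1 and Dok7 had UMIs in many cell classes of the control cerebellum, and Musk mainly in 1 unnamed cluster and in fibroblasts. Lrp4 was at 26.5 CPM in astroglia, 33.5 in endothelial cells and 23.1 in fibroblasts of the Insm1 controls (means of 2 libraries), and at 40.9, 61.1 and 33.2 in the Tead1/2 controls. In granule lineage cells Lrp4 was at 1.79 and 2.15 CPM. Chrnb1 was at 1.49 and 0.792 CPM in the granule lineage cells of the Insm1 and the Tead1/2 controls, at 1.15 and 1.09 in interneurons, at 2.73 and 1.83 in fibroblasts and at 1.59 and 2.90 in endothelial cells. Dok7 was at 3.42 and 11.5 CPM in Purkinje cells (64 and 12 UMIs) and at 2.11 and 4.89 in the oligodendrocyte lineage (53 and 94 UMIs). The Purkinje value of the Tead1/2 controls rests on 21 cells. All 12 UMIs came from 1 library (23.05 CPM), and the other had 0. In the Insm1 controls the 2 libraries had 5 and 59 UMIs, from 181 Purkinje cells. Musk in the controls was found mainly in the unnamed cluster 26, led by the cilium genes Dnah12, Spag16 and Dnah6, with 76.7 and 22.2 CPM in the Insm1 controls (108 and 46 UMIs) and 56.2 and 36.6 in the Tead1/2 controls (81 and 21 UMIs). That cluster, picked out after its values were seen, held 17 to 51 control cells a library. In its mutant cells Musk was at 21.9 to 59.3 CPM, so the control and mutant ranges overlapped. Fibroblasts held Musk at 3.74 and 8.53 CPM on average in the 2 sets of controls.

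Granule lineage cells, in which Atoh1Cre acts, had more Dok7, Chrnb1, Lrp4 and Musk in the mutants. Dok7 was at 1.04 and 0.614 CPM in the granule cells of the Insm1 controls (70 and 23 UMIs) and at 7.24, 7.31 and 10.6 in the mutants (160, 158 and 124 UMIs). For Tead1/2 it was at 0.650 and 0.908 CPM in controls and 2.77, 3.97 and 3.96 in mutants. The share of granule cells with a Dok7 UMI was 0.488% to 0.951% in Insm1 controls and 4.31% to 7.31% in mutants, and at 2000 UMIs per cell 0.0883% to 0.215% and 1.495% to 1.62%. The mutant shares and levels lay above all control values.

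By edgeR 4 of 6 tested members were called higher in the granule lineage of the Insm1 mutants, beside 12.7% of 16944 genes: Dok7 (log2 change 3.24, SE 0.27; adjusted p = 3.51e-06), Chrnb1 (2.18, SE 0.22; 1.98e-05), Musk (1.94, SE 0.56; 0.0266) and Lrp4 (1.47, SE 0.16; 4.05e-05). In the Tead1/2 mutants 5 were called, beside 13.2% of genes: Chrna1 (3.10, SE 0.51; 7.22e-04), Musk (2.53, SE 0.61; 0.00919), Dok7 (2.15, SE 0.29; 1.42e-04), Chrnb1 (1.91, SE 0.26; 1.57e-04) and Lrp4 (1.01, SE 0.16; 5.77e-04). Musk rests on 3 to 13 UMIs per mutant library and Chrna1 on 10 to 25 in the Tead1/2 mutants. Chrna1 in the Insm1 mutants had a difference of 0.73 (edgeR adjusted p = 0.468), which was -0.31 without granule cells that held UMIs of at least 3 muscle markers. Control granule cells lay mostly in clusters 6, 7, 8, 10 and 15 and mutant ones in clusters 9, 17, 28 and 30.

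Some of these genes were also called higher in cells that the Cre does not target. In GABAergic interneurons, a comparison added after seeing the data, Dok7 rose by 3.00 in the Insm1 mutants (edgeR adjusted p = 5.50e-05), Chrnb1 by 2.09 (1.03e-04) and Lrp4 by 0.87 (0.0371), 3 of 4 tested members beside 9.88% of 15200 genes. Chrna1 rose there by 2.65 (0.0158), Dok7 by 1.63 (0.00433) and Chrnb1 by 1.38 (0.00414) in the Tead1/2 mutants, 3 of 4 tested members beside 9.6% of genes. Lrp4 had a difference of 0.48 there (0.253), and Musk was not tested in interneurons alone. Mean Musk levels in interneurons were 0.139 CPM in Insm1 controls and 0.243 in mutants (9 and 6 UMIs), and 0.0597 and 0.379 for Tead1/2 (3 and 10 UMIs). The granule effect minus the interneuron effect, with the library as a block, was called for 0 of 6 members in either allele by edgeR. Of 17531 genes, 11.2% for Insm1 and 13.6% for Tead1/2 were called in either direction, and 5.82% and 7.31% higher. At an unadjusted p under 0.05 the difference held 1 member for Insm1 (Lrp4, 0.56, edgeR adjusted p = 0.183) and 0 for Tead1/2. For Dok7 this difference was 0.25 (0.703) and 0.50 (0.330). For Musk it was 1.27 (edgeR adjusted p = 0.429) and -0.013 (0.9996).

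Microglia also held UMIs of some of these genes in the mutant libraries. In control microglia Chrna1 had 0 UMIs in both alleles, and Chrng had 1 in the Insm1 controls and 0 in the Tead1/2 controls. Dok7 had 0 UMIs in the microglia of all 4 control libraries (226 and 350 cells for the 2 alleles), and 2, 4 and 4 UMIs in the Insm1 mutants (2.45, 4.59 and 5.91 CPM) and 0, 12 and 4 in the Tead1/2 mutants (0, 4.85 and 1.52 CPM). Chrnb1 in microglia was at 13.5, 1.15 and 16.2 CPM in the Insm1 mutants and at 0, 8.08 and 5.32 in the Tead1/2 mutants. The Chrnb1 levels of mutant granule cells (6.16, 8.33 and 6.14 CPM for Insm1 and 2.48, 3.20 and 3.80 for Tead1/2) lay inside the microglial range. Those of Dok7 lay inside it for Tead1/2 and above the microglial values for Insm1. The microglial values rest on 0 to 12 Dok7 UMIs a library, with counting intervals of up to 15.1 CPM for Insm1. Microglial Chrna1, at up to 4.44 CPM in the Tead1/2 mutants, was above the granule level of 0.578 to 1.29. Musk had 0 UMIs among 2364469 in the microglia of the Insm1 mutants and 1 among 6080710 in those of the Tead1/2 mutants. That is too few to compare with granule cells. Lrp4 in microglia was at 13.2 to 19.4 CPM in controls and 9.81 to 26.4 in mutants. Microglia had median depths of 3740 to 6619.5 UMIs a library and granule cells 5201 to 8031. The source of the granule and interneuron UMIs of Chrna1, Chrnb1, Dok7, Lrp4 and Musk was not tested in either allele. These differences are read neither as expression by those cells nor as RNA from other cells.

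**Figure D5:**
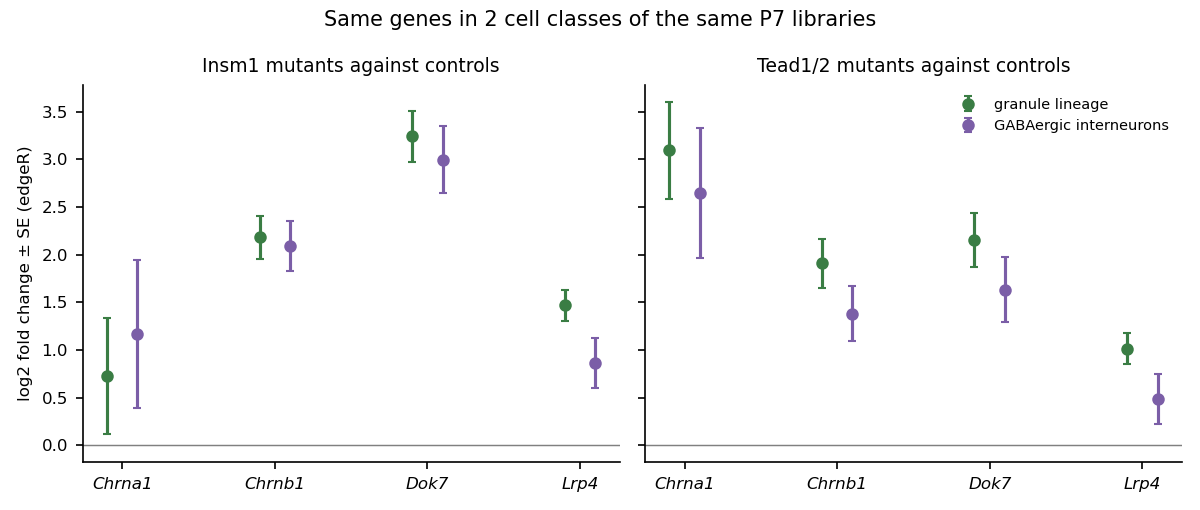
Log2 fold changes with standard errors, from edgeR on library sums, of Chrna1, Chrnb1, Dok7 and Lrp4 in granule lineage cells and in GABAergic interneurons of the same P7 libraries, for Insm1 and Tead1/2 mutants against controls. Dok7 rises in both classes, by 3.24 and 3.00 for Insm1 and by 2.15 and 1.63 for Tead1/2.

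Other junction genes were counted from lists that also hold genes used in every tissue, and the counts are read beside the shares of all genes called: 0.48% higher at P2 for Insm1 and 1.98% for Tead1/2 without mutant 4, and 18.6% and 25.9% higher at P7 (33.9% and 48.6% in either direction). Nothing particular to a list is read from them. At P2 the Insm1 mutants had 3 such genes called higher: Colq, the collagen tail of acetylcholinesterase (log2 change 1.63; edgeR adjusted p = 0.0410), the neuregulin receptor Erbb3 (1.54; 0.0246) and Myog (4.51; 0.0246). With all 7 Tead1/2 libraries 0 genes of these lists were called. Without mutant 4 the Tead1/2 series had Colq (2.07), Erbb3 (1.42) and Myog (7.08) called higher and Dach2 (-0.40) lower. Colq, Erbb3 and Myog were thus called for Insm1, and for Tead1/2 without mutant 4 only. Mutant 4 was set apart by its own Myog level, so these Tead1/2 calls are no independent result.

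At P7 the basal lamina and esterase genes were called higher in 10 of 12 cases for Insm1 and 11 of 12 for Tead1/2, and none lower, with medians of 1.02 and 1.72 on the log2 scale against 0.0377 and 0.0551 over all genes. Colq rose by 5.39 and 6.94, Ache by 3.16 and 4.36, and the basement membrane proteoglycan gene Hspg2 by 1.65 and 2.44. Summed fibroblast markers were at 170 to 174 CPM in Insm1 controls against 183 to 257 in mutants, and at 169 to 172 against 257 to 491 for Tead1/2, and summed mural markers were at no more than 61.5 CPM in any control library and at least 82.5 in every mutant library; their part in the basal lamina genes was not tested. Of 19 postsynaptic signalling and scaffold genes 7 were called higher and 3 lower for Insm1, and 8 and 4 for Tead1/2, with medians of 0.0925 and -0.0766; the muscle sodium channel Scn4a rose by 4.83 and 6.73 and Nes by 2.83 and 3.89. Of 10 genes of the dystroglycan and syntrophin complex 4 were called higher and 3 lower in each allele, with Sntb1 at 3.09 and 4.50. Of 5 congenital myasthenia genes of glycosylation 0 were called higher and 2 lower for Insm1, and 1 and 3 for Tead1/2, with medians of -0.152 and -0.181: Alg2 fell by 0.32 and 0.40, Alg14 fell by 0.24 and 0.18, and Gfpt1 rose by 0.38 in the Tead1/2 mutants.

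Among 9 neuregulin and ETS genes 4 were called higher and 4 lower for Insm1, and 3 and 4 for Tead1/2: Erbb3 rose by 4.66 and 4.64, and Nrg1, the nerve-derived ligand, fell by 2.10 and 2.60. Denervation-associated genes were called higher in 7 of 10 cases for Insm1 and 8 of 10 for Tead1/2, and none lower (medians 0.264 and 0.781): Myog rose by 6.83 and 7.37 and the ubiquitin ligase gene Trim63 by 5.49 and 6.08. Of 6 motor terminal genes tested, 2 were called higher and 1 lower for Insm1 and 2 higher for Tead1/2, with medians of 0.318 and 0.41, and Chat, which makes acetylcholine, fell by 1.34 in the Insm1 mutants. Motor neuron markers summed to 3.98 to 5.16 CPM in Insm1 controls and 8.48 to 11.8 in mutants, and to 5.22 to 5.92 and 10.3 to 11.3 for Tead1/2, with Mnx1 at 0 in all 10 libraries. Their part in these results was not tested.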

How the data were processed

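Whole-cerebellum RNA of 15 P2 pups and single cells of 10 P7 libraries were used, grouped by the labels. The P2 tables hold expected counts per gene that the authors made with RSEM 1.3.3 after STAR 2.7.9a alignment to GRCm38.p6, per the submitters' processing notes; 6.85% to 8.79% of the values used were not whole and were rounded here, and 92 spike-in entries of 55665 were left out. The P7 matrices hold UMI counts per gene and barcode as deposited, from a split-pool kit per the labels; the tool that counted them is not given in the sources used here, and their libraries were matched through the deposited cell metadata. Replicate number 1 at P7 marks whole cerebella and numbers 2 and 3 cerebella without lobules IX and X, per those names. Each of the 2 P2 tables carries the other allele's name than its columns, which were matched by the column names that the labels give, so that the allele rests on those labels and on the Insm1 levels. No per-sample column was left unmatched. Gene tables at P7 name GRCm39, and the spans and promoters given are from GRCm38.p6.

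Each P2 allele was fitted alone, and the 10 P7 libraries together, with edgeR 4.0.16 in R 4.3.3 (TMM, filterByExpr, quasi-likelihood test, Benjamini-Hochberg adjustment over all genes tested, threshold 0.05), without covariates. Barcodes passed with 1000 or more UMIs in 500 or more genes and a mitochondrial share under 15%, and library sums used all of them. For clusters, the 4% of barcodes with the highest doublet scores in each library were removed, since the automatic threshold was unstable. Clustering used scanpy 1.11.5 (2000 variable genes, 30 components, 15 neighbours, Leiden resolution 1.0) without the 9 members and the junction lists, and a cluster was named from at least 3 markers; 6 of 34 clusters, with 6470 cells, stayed unnamed. Shares of cells were also given after thinning each cell to 2000 UMIs. Up to 3 called genes of each junction list, by size of change, and the 5 genes most like Chrng and Chrna1 are named, besides all 9 members. A gene that this rule would name is not reported here. Of the members, 6 passed the filter at P2, 9 in the P7 sums, 6 in granule cells and 4 in interneurons. The edgeR fits were also run on simulated counts that gave all genes the same spread and held no outlying library. That differs from these data, and nothing is read from that run. Alternatives were DESeq2 1.42.0, no low-count filter, other barcode sets, a replicate block, a sex term and each library left out. The members and lists were chosen with earlier results of these data known.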

Additional observations from a re-analysis of the deposited data

Results flagged for a closer look

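Among 27 sets of 4 P2 libraries, each holding 1 member in 1 group, 2 held a library whose gap to the next was more than 0.829 of the range; chance gives about 1 in 20 groups for continuous values, a rate that does not apply to counts this low, where a single count among zeros always meets the limit. Chrng was at 0.215 CPM in Insm1 control 2, above the other 3 controls, and Chrne was at 0.0241 CPM in Insm1 control 1, a single count where the other 3 had none.

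The P7 effects of the 2 deletions differed, by the edgeR test of the difference itself on library sums, for 5 members, all larger in the Tead1/2 mutants. On the log2 scale the difference was 2.30 for Chrnd, 2.01 for Chrna1, 1.59 for Rapsn, 1.45 for Musk and 1.02 for Chrnb1. Both the share of muscle-like cells (13.9% to 15.8% in the Insm1 mutants and 21.9% to 30.5% in the Tead1/2 mutants) and the level within those cells moved with it, and their parts were not separated. With a replicate block, in which number 1 marks whole cerebella and numbers 2 and 3 cerebella without lobules IX and X, 3 members were called.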

How the results depend on the processing

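At P2, Insm1 had 1 member called and 2 with DESeq2 (308 genes against 135), and 0 to 3 when single libraries were left out. Tead1/2 had 0 members and 1 without the low-count filter (1287 genes against 0), 0 to 2 when single libraries were left out, and 2 with DESeq2 without mutant 4, chosen after seeing the data (1195 genes). At P7 the difference of the effects had 5 members, 3 without doublets, 1 with all barcodes and 0 to 5 when single libraries were left out. The muscle-like comparison had 7 members and 1 in cluster 32 or cluster 33 alone. The P2 fetal share difference ran from -14.09 to 35.91 points for Insm1 and from -2.122 to 37.88 for Tead1/2 when single libraries were left out. The P7 control share was 71.83% without doublets and 83.93% with all barcodes for Insm1, and 86.79% with all barcodes for Tead1/2. The cause was not tested.

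With a replicate block the members called were 1 for P2 Insm1 (64 genes against 135), 0 for P2 Tead1/2 (236 genes against 0) and 3 of the 5 at P7 for the difference of the effects, and no other count of members changed. Residuals of same-numbered libraries correlated at -0.277, -0.165, -0.0244 and 0.407 for P2 Insm1 and 0.0219, -0.147 and -0.0851 for P2 Tead1/2, so the numbers were not taken to pair the libraries.

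Signs turned for 23 of the values per gene. With single libraries left out, Lrp4 at P2 for Insm1 ran from -0.034 to 0.083 and was -0.021 with a sex term, and Dok7 there ran from -0.018 to 0.084. In the P2 difference of the effects Chrng ran from -2.99 to 0.21 and Musk from -0.38 to 0.19 when single libraries were left out. In that of P7 Chrne ran from -0.33 to 0.74 and Dok7 from -0.19 to 0.25, with Dok7 at -0.0080 by DESeq2 and -0.13 with all barcodes. Granule Chrna1 for Insm1 ran from -0.022 to 1.21 and was -0.31 without cells holding 3 muscle markers. In cluster 32, Lrp4 was -0.61 and Chrnb1 -0.32, and in cluster 33, Chrnb1 was -0.33 and Chrng -0.028. Otherwise 729 values kept direction and call, 51 lost and 12 gained a call. Depth limits Chrne, Chrnd and Rapsn at P2, with 0 to 13 counts a library.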
